A study of Arabidopsis thaliana with 4 samples.

Results

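The oxygen-sensing genes of Arabidopsis thaliana described here are 9 loci: the group VII ethylene response factor (ERF-VII) genes RAP2.2 (AT3G14230), RAP2.12 (AT1G53910), RAP2.3 (AT3G16770, also called EBP), HRE1 (AT1G72360) and HRE2 (AT2G47520), the plant cysteine oxidase genes PCO1 (AT5G15120) and PCO2 (AT5G39890), and the transcription regulator genes HRA1 (AT3G10040) and LBD41 (AT3G02550). They were taken as the probe sets annotated to one of these loci alone, which gave 9 probe sets for the 9 genes, among 22746 probe sets and 21226 genes with a probe set of their own. No probe set shared between several loci named any of the 9. The set was chosen by the known role of its genes together with the log2 difference between ASP and control measured on these same arrays. The members' own differences are therefore a description, without a test.

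The samples were whole 5-day-old seedlings of wild-type Columbia 0. One group of 2 arrays came from seedlings grown with ASP in half-strength Murashige and Skoog medium, and the other 2 arrays, the control, from seedlings grown without it. For both groups the medium held 0.1% sucrose and 0.7% agar, with 16 h of light and 8 h of dark at 22 to 24 °C. ASP is the submitters' name for a synthetic piperazine that carries a bromophenoxyacetyl group on one nitrogen and a fluorophenylsulfonyl group on the other. The labels state neither its dose nor how many seedlings made up a sample. The labels call the 2 samples of a group biological replicates.

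Plants sense oxygen through the stability of the ERF-VII proteins. These transcription factors begin with a cysteine after the initiator methionine. In air, the PCO enzymes use molecular oxygen to oxidise that cysteine, after which the protein is arginylated by ATE enzymes, marked by the ubiquitin ligase PRT6 and degraded through the N-degron pathway. When oxygen is short the oxidation stalls, the ERF-VII proteins persist and switch on low-oxygen response genes, among them those of fermentation and, as feedback, PCO1, PCO2 and HRA1. Dense or fast-respiring tissues such as meristems are known to hold less oxygen than the surrounding air, also without flooding.

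Values are log2 of a normalized probe set signal, in which a difference of 1 is a 2-fold change, and the number of arrays limits their precision. Signals of different probe sets are not comparable as levels, so each gene is compared only with itself. All 9 members were called present on all 4 arrays, as were 14261 probe sets in total. Over those, the median standard deviation between arrays of a group was 0.152. The seedling label was checked against shoot and root markers. The 3 green shoot genes measured (RCA, CA1 and GLDP1) were present on all arrays. So were 2 of the 5 root endodermis genes, CASP1 and ESB1, while CASP2, CASP4 and CASP5 were not. Of the meristem markers, SCR, CYCB1;1 and KNAT1 were present on all arrays. CLV3, WUS and PLT1 were called absent on all of them, and STM and PLT2 were present on none.

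The 3 ERF-VII genes that are transcribed in air as well as under low oxygen, RAP2.2, RAP2.12 and RAP2.3, differed little between seedlings with and without ASP. RAP2.2, an activator of low-oxygen genes, had a log2 signal of 11.63 and 11.60 with ASP, against 11.58 and 11.78 in control. The groups overlapped, and the difference of -0.06 was smaller than the 0.20 between the control arrays. RAP2.12, which is held at the plasma membrane in air by acyl-CoA-binding proteins and moves to the nucleus when oxygen is short, had 10.33 and 10.51 with ASP, against 10.76 and 10.58 in control. Both ASP arrays lay below both control arrays, by at least 0.07, a gap smaller than the 0.18 between the arrays within each group. The mean was 10.42 ± 0.13 with ASP and 10.67 ± 0.13 in control (SD, n = 2 each), a log2 difference of -0.25. RAP2.3, a member of the group also known for its response to ethylene, was the one gene on the higher side, with 12.89 and 12.62 with ASP, against 12.52 and 12.45 in control. Its mean difference was 0.26, and the nearest ASP and control arrays lay 0.09 apart, less than the 0.27 between the ASP arrays.

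HRE1 and HRE2, whose transcripts accumulate under low oxygen and which sustain the response, were lower with ASP. HRE1 had a log2 signal of 7.80 and 7.48 with ASP, against 8.44 and 8.16 in control, with group means of 7.64 ± 0.23 and 8.30 ± 0.20 (SD, n = 2 each). The groups did not overlap. Its ratio of ASP to control was 0.631, and over the 4 pairs of one ASP and one control array it ran from 0.513 to 0.776. HRE2 had 6.10 and 5.73 with ASP, against 6.51 and 6.38 in control, and its groups were also separate. Its mean difference was -0.53, or 1.44-fold lower, and the smallest gap between the groups, 0.28, was less than the 0.37 between the ASP arrays. For HRE1 the smallest gap, 0.37, was slightly more than the 0.32 between its ASP arrays.

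**Figure D1:**
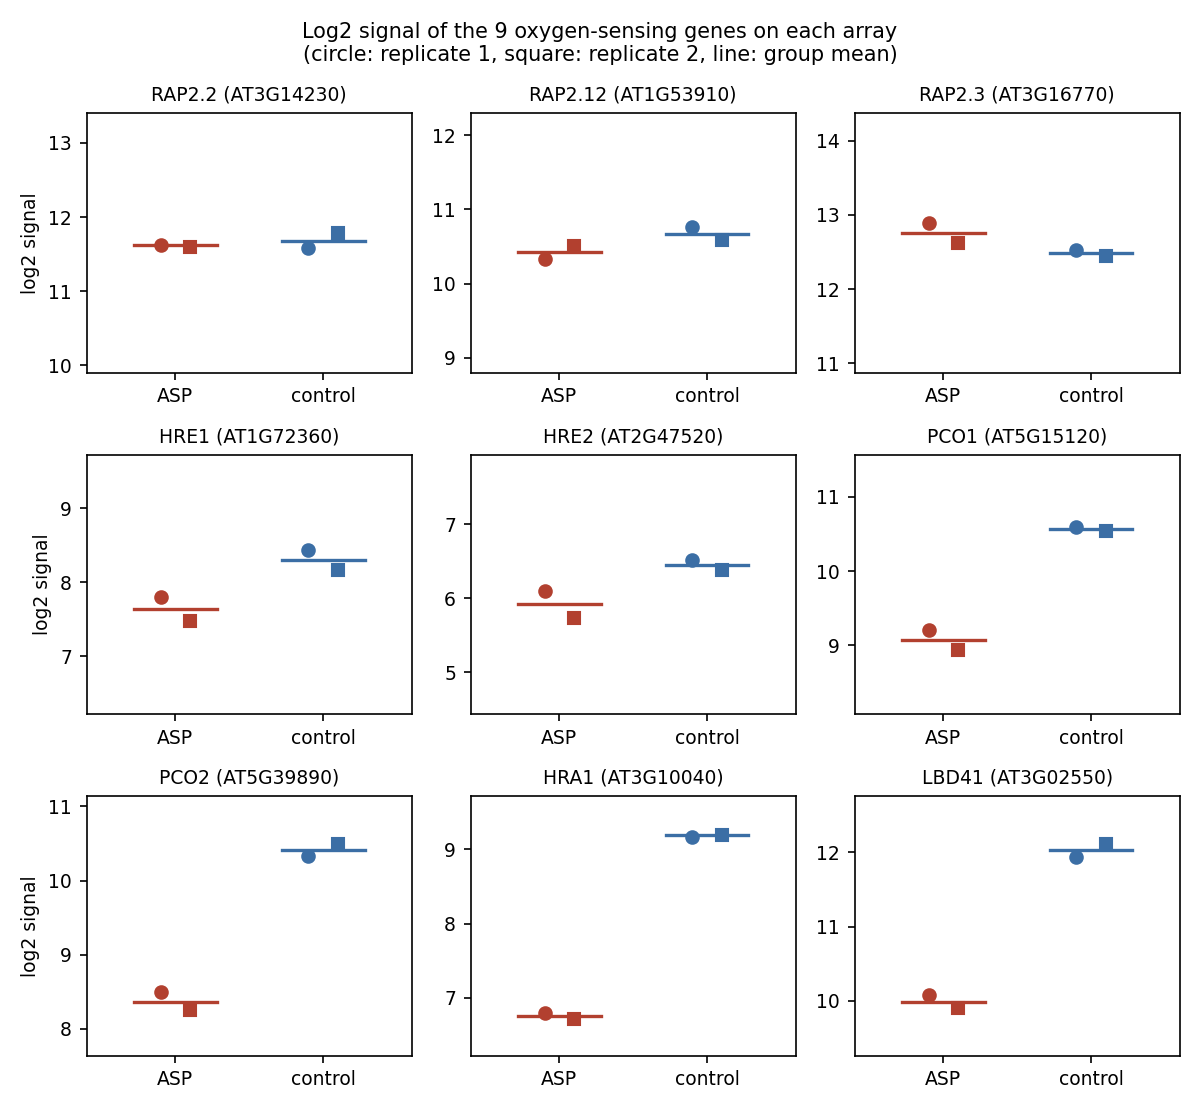
Log2 signal (vertical axes, all spanning the same range) of the 9 oxygen-sensing genes on the 2 ASP arrays (red) and the 2 control arrays (blue), with circles for replicate 1, squares for replicate 2 and a line at each group mean. RAP2.2, RAP2.12 and RAP2.3 lie almost level between the groups, HRE1 and HRE2 are modestly lower with ASP, and PCO1, PCO2, HRA1 and LBD41 have log2 differences between -1.50 (PCO1) and -2.44 (HRA1).

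Both cysteine oxidase genes were much lower with ASP. PCO1 encodes one of the enzymes that oxidise the N-terminal cysteine of the ERF-VII proteins. Its log2 signal was 9.20 and 8.94 with ASP, against 10.60 and 10.54 in control. On the linear scale this was 586 and 493 with ASP and 1552 and 1491 in control, a 2.83-fold lower signal. PCO2, an enzyme of the same family, had 8.50 and 8.25 with ASP, against 10.33 and 10.49 in control. Its mean was 8.37 ± 0.18 with ASP and 10.41 ± 0.12 in control (SD, n = 2 each), which on the linear scale is 75.7% lower with ASP. The groups were 1.35 apart at the closest for PCO1 and 1.83 for PCO2, whereas the arrays of a group differed by at most 0.25 in either gene.

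HRA1 and LBD41 showed differences of the same order. HRA1 encodes a trihelix protein that is induced by RAP2.12, binds it and restrains its activity. It had a log2 signal of 6.79 and 6.71 with ASP, against 9.17 and 9.20 in control. Its arrays agreed within 0.09 with ASP and within 0.03 in control, and the 4 pairwise ratios of ASP to control lay between 0.177 and 0.192. The mean difference was -2.44, a signal 5.42-fold lower. LBD41 encodes a LOB-domain transcription factor known as one of the genes induced by low oxygen in many tissues. It had 10.08 and 9.90 with ASP, against 11.94 and 12.12 in control, and each ASP array was 3.63-fold to 4.67-fold below each control array.

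Over the set, 7 of the 9 genes had both ASP arrays below both control arrays, 1 (RAP2.3) had both above, and 1 (RAP2.2) overlapped. Among all probe sets 20.9% had both ASP arrays below and 18.5% both above. The 4 genes at least 2-fold lower were PCO1, PCO2, HRA1 and LBD41, and no member was 2-fold higher. Of the 14261 probe sets present on all arrays, 0.533% (76) were at least 2-fold lower and 0.498% at least 2-fold higher. The median log2 difference was -2.04 over these 4 genes and -0.25 over the 5 ERF-VII genes, against -0.02 over all probe sets. As the members were chosen with these differences known, the shares are given for scale only.

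Ranked from the lowest log2 difference upward among the probe sets present on all 4 arrays, HRA1 stood at place 1, LBD41 at 8, PCO2 at 9 and PCO1 at 21. HRE1 followed at place 249 and HRE2 at 457, while RAP2.12 stood at 2037, RAP2.2 at 5550 and RAP2.3 at 12302. The oxidase genes, HRA1 and LBD41 thus lay at the low end of the distribution, and the 3 ERF-VII genes transcribed in air lay within its bulk. Within the ASP group, replicate 1 was above replicate 2 in 8 of the 9 genes, against 51.7% of the probe sets present on all arrays. RAP2.12 was the exception. In control, replicate 1 was the higher in 5 of the 9, against 47.8% of the probe sets present on all arrays. Each count rests on 1 pair of arrays, so the 9 genes are not separate observations.

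**Figure D2:**
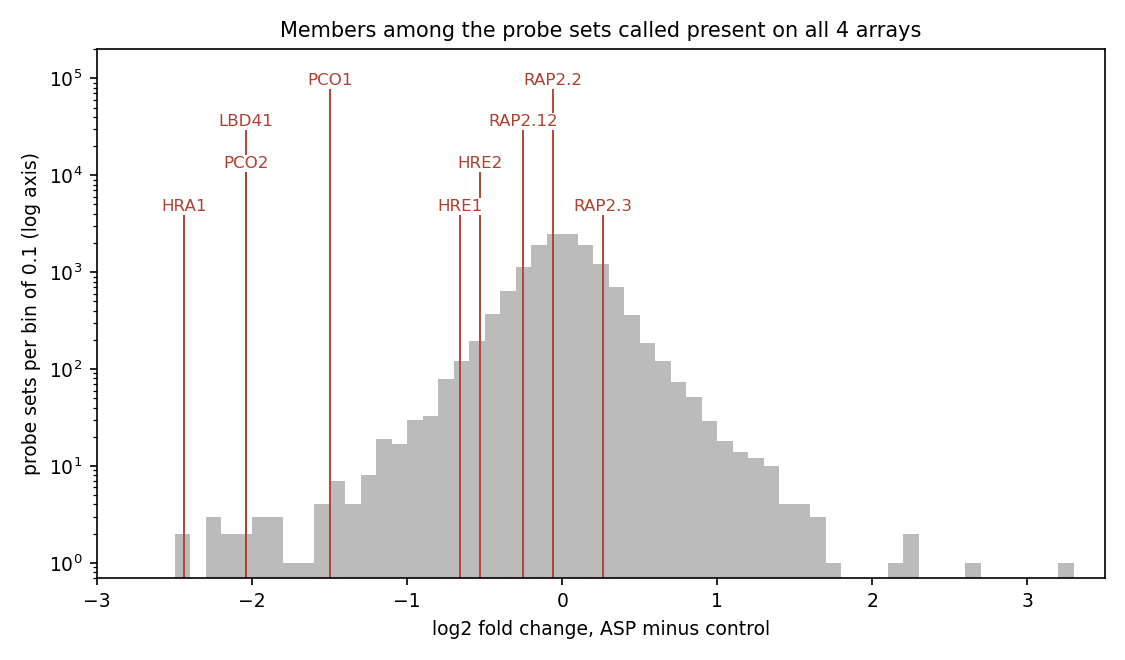
Histogram of the log2 fold change, ASP minus control, of the 14261 probe sets called present on all 4 arrays (grey, bins of 0.1, logarithmic vertical axis), with a red line at each oxygen-sensing gene. HRA1 at -2.44 stands at the lowest end, LBD41 and PCO2 both at -2.04, and RAP2.2, RAP2.12 and RAP2.3 between -0.25 and 0.26.

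The 4 genes past 2-fold were also set against 14229 genes by the distance between their log2 signals over the 4 arrays, each relative to the mean of its own control arrays. PCO2 and LBD41 were each other's nearest gene, at a distance of 0.0509. For both, the anthocyanin synthesis gene DFR (0.170 from PCO2 and 0.156 from LBD41) and SVL5, a member of the SHV3-like family, came next. For HRA1 the nearest were the anthocyanin glycosyltransferase gene UF3GT (0.168), the pathogen-response gene LURP1 (0.237) and AT5G20790, annotated as a hypothetical protein (0.264). For PCO1 they were the phosphate sensor gene SPX1 (0.0882), the glycerophosphodiesterase gene SRG3 (0.159) and AT2G28780, also a hypothetical protein (0.249). DFR, SVL5, UF3GT and LURP1 were called absent on both ASP arrays, so their distances rest on signals not told apart from background there. A distance over 4 arrays in 2 groups reflects mainly the size of the difference.

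In the TAIR10.1 gene order, the flanking protein-coding genes of the 4 lowest members that were present on all arrays had log2 differences of -0.07 (AT3G10030) and -0.29 (OMR1) beside HRA1, -0.15 (RAD23C) and -0.55 (AT3G02555) beside LBD41, 0.19 (AT5G39900) beside PCO2 and -0.97 (WRKY72) beside PCO1. The other flanking genes, AT5G39880 beside PCO2 (-0.50) and AT5G15110 beside PCO1 (3.07), were called present on no array, so these values are not measured differences.

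Other genes of the N-degron pathway, its oxidases and its partners, not only those of the route described above, were measured to show the machinery around the members. Of 20 loci listed, 19 had a probe set and all 19 were present on every array. They comprise PCO3, PCO4 and PCO5, the arginyl transferases ATE1 and ATE2, the ubiquitin ligases PRT6 and PRT1, BIG, methionine aminopeptidases, N-terminal amidases, the ERF-VII partners ACBP1, ACBP2 and MED25, the kinases KIN10 and KIN11, and VRN2, another oxygen-sensitive N-degron protein. None was called in either direction by limma, a linear model with moderated variances, which called 0% of all probe sets and so could single out no list. At an unadjusted p under 0.05 there were 0 of the 19, against 7.42% of all probe sets, a share at which few of 19 genes would be counted in any list. The smallest Benjamini-Hochberg adjusted p among them was 0.799, or 0.654 when the variance prior followed brightness (trend fit). Their median log2 difference was 0.03, with 12 higher and 7 lower.

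The remaining oxidase genes gave values unlike PCO1 and PCO2. PCO4, transcribed in air as well as under low oxygen, had 7.97 and 7.85 with ASP, against 8.02 and 7.79 in control. PCO3 differed by 0.04 and PCO5 by 0.26. PRT6, the ubiquitin ligase of the route, differed by -0.01. The largest differences on the list were those of ACBP2 (-0.41), ATE2 (-0.31), VRN2 (0.31) and MED25 (0.29), a Mediator subunit that works with ERF-VII proteins, and none of them passed.

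Low-oxygen-induced genes outside the set were mostly lower with ASP, but unevenly. Of 42 loci listed, 41 were measured, 36 of them present on all arrays, and 35 were lower and 6 higher, with a median of -0.40 (-0.30 over the 36). Without a trend, limma called 0 of the 41, as it called 0% of all probe sets, with 13 lower and 2 higher at an unadjusted p under 0.05, for which the share over all probe sets is the 7.42% above. The trend fit called 10 of the 41 lower and 1 higher, against 0.167% and 0.149% of all probe sets. As this list was chosen with earlier results of these data known, its counts beside these shares are given for scale only. Those 11 calls came down to 1 without ASP replicate 1, ASP replicate 2 or control replicate 1, and to 3 without control replicate 2. The 1 gene called in each of these fits was AT4G10270, a putative wound-responsive protein, at 8.77 and 8.90 with ASP, against 11.01 and 10.98 in control (adjusted p 0.000654 with all 4 arrays).

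AT4G10270 and the following genes are those with the largest absolute differences on the list among genes present on both arrays of the brighter group, so their sizes follow from that choice. AT4G33560, of the wound-responsive family, had 6.63 and 6.77 with ASP, against 8.85 and 8.98 in control (trend fit adjusted p 0.0056). AT4G33070, pyruvate decarboxylase 1, which commits pyruvate to ethanol fermentation, had 6.28 and 6.57 with ASP, against 8.95 and 8.37 in control (0.0189). AT4G24110, a hypothetical protein, was 5.35-fold lower (0.0217). SRO5, related to the stress regulator RCD1, was called absent on both ASP arrays and present on both control arrays. Its signal was 6.14-fold lower (0.0185). AT5G10040 had the same calls and a signal 5.01-fold lower (0.222). The lowest signal called present on each ASP array served as a floor for these 2 genes. Both SRO5 signals lay above it, so its fold is the plain ratio of the signals. For AT5G10040 only ASP replicate 2 lay below it, and only slightly. Neither fold is a bound set by a detection limit, and neither covers the spread between arrays. The ASP signals of both genes were not told apart from background.

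The trend fit also called lower AT3G27220 (-1.97), CML38 (-1.47), FTM1 (-1.41), AT1G33055 (-1.19) and AT5G66985 (-1.08), each present on all arrays. Several other genes of the list, picked after their values were seen, differed by less than the genes named above and were not called. The alcohol dehydrogenase gene ADH1 had 11.77 and 12.28 with ASP, against 12.02 and 12.74 in control, and its groups overlapped. The sucrose synthase gene SUS1 differed by -0.09, also with overlapping groups. SUS4 differed by -0.48 and the haemoglobin gene HB1 by -0.62. In both of these the ASP arrays lay below the control arrays, as in 20.9% of all probe sets. The 1 gene called higher was PBP1, which encodes a calcium-binding partner of the kinase PINOID, with 9.09 and 9.18 with ASP, against 7.60 and 7.91 in control (adjusted p 0.0221 in the trend fit).

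**Figure D3:**
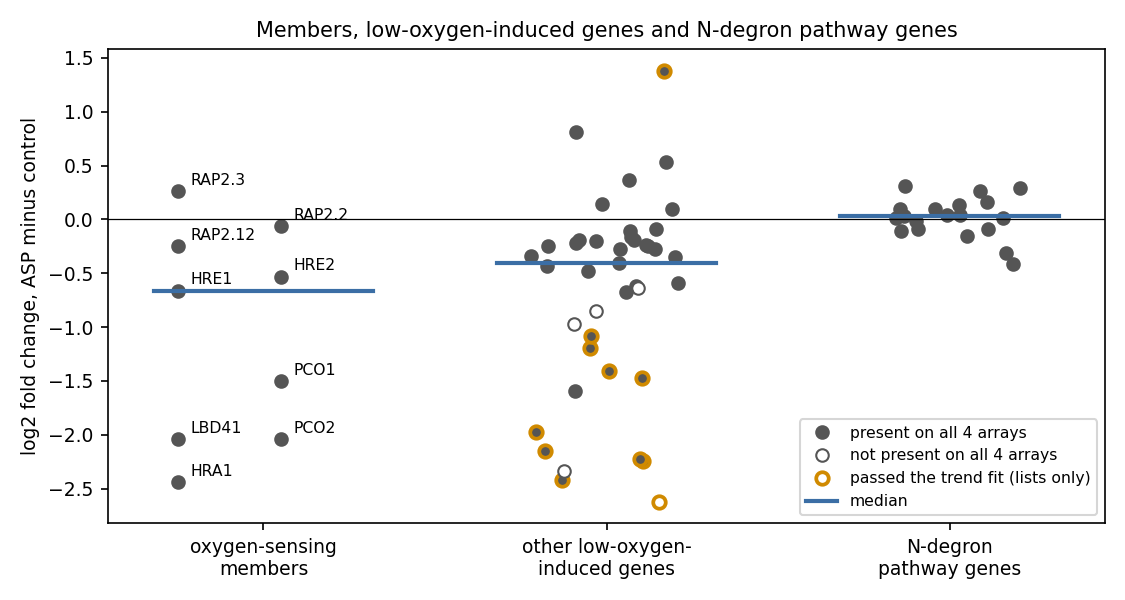
Log2 fold change, ASP minus control (vertical axis), of each oxygen-sensing member, of 41 other low-oxygen-induced genes and of 19 N-degron pathway genes, one point per gene, with a blue line at the median (-0.66, -0.40 and 0.03). Filled points were present on all 4 arrays, and orange outlines mark the 11 list genes that passed the trend fit; members were not tested, and the spread of the points across each column has no meaning.

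In the authors' deposited table of 148 differing probe sets, selected at an unadjusted p of 0.05 and a fold of 2 from 3 columns per group, 1 of the 9 members was listed. This was PCO2, at a ratio of 0.318 and p 0.0437 in the authors' deposited table. On the 4 arrays used here its ratio of linear means was 0.244. PCO1, HRA1 and LBD41, which were past 2-fold on these 4 arrays, were not in the authors' deposited table. The close agreement within groups given above rests on 2 arrays per group, against the authors' 3 columns. In the workbook, 2 columns of log2 signal matched no sample by name and were not used here. Their part in these differences was not tested. The authors' deposited table also held 5 genes of the low-oxygen list, with ratios of 0.236 for AT5G10040, 0.294 for AT4G33070, 0.425 for FTM1, 0.434 for AT5G66985 and 2.55 for PBP1. That table held 148 probe sets, where 22746 were tested here. The members and this list were chosen with earlier results of these data known, so these counts are given for scale only.

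Whole seedlings mix organs, and in bulk RNA fewer cells of a type and less RNA per cell cannot be told apart. Some tissue markers moved alongside the members. The 5 root endodermis markers used, 2 of them present on all arrays, were all lower, with a median of -0.90 and a summed linear signal of 1058 to 1186 with ASP and 1396 to 2685 in control. All 4 lateral root primordium markers (LBD16, LBD18, LBD29 and PUCHI) were higher, with sums of 530 to 620 with ASP and 267 on each control array, where LBD18 and LBD29 were called absent. The 5 root hair and epidermis markers were all lower, with a median of -0.18 and sums of 586 to 614 with ASP and 615 to 857 in control. The 3 measured green shoot markers were higher, at 32329 to 36762 with ASP and 25690 to 28604 in control, and vascular markers were lower in 4 of 5, at 2030 to 2410 with ASP and 2082 to 2613 in control. Of 4 root cortex and whole-root markers 3 were lower, with a median of -0.76. IRT1, the iron transporter of the root epidermis, differed by -1.82, CO2 by -0.93, NRT2.1 by -0.58 and PYK10 by 0.17. The summed signal of these 4, 16409 to 16725 with ASP and 13574 to 17712 in control, is mostly that of PYK10. The trend fit called 1 of these 4, against 0.167% of all probe sets lower and 0.149% higher. It called no marker of the other lists. Among the root meristem markers the 2 present on all arrays, SCR and CYCB1;1, differed by -0.04 and 0.40, and PLT1 and PLT2 were present on none (sums over the 4 of 1259 to 1346 with ASP and 1284 to 1299 in control). Of the shoot meristem markers 1, KNAT1, was present on all arrays and differed by 0.24, and the other 3 were present on none (sums over the 4 of 900 to 1143 with ASP and 755 to 988 in control). The part of tissue composition in the members' differences was not tested.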

How the data were processed

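RNA was labelled with a 3′ IVT kit for Affymetrix arrays, per the labels' protocols. The authors deposited normalized log2 signals with a detection call for each probe set, per the file headers, without naming the summary method there. The authors' deposited table of differing probe sets holds a p-value from a t-test and a ratio of linear group means. In the workbook, 4 per-sample columns (2 of log2 signal) matched no sample by name and were not used. Values in the series matrix equalled those of the workbook to within 5e-09.

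Control probe sets of the array (64) were left out. Probe sets of 1 locus were used, the brightest per gene, and names follow the reference table of TAIR10.1 (21052 of 21226 genes matched). Groups were compared in R 4.3.3 with limma 3.58.1 (lmFit, then eBayes, two-sided, with neither a trend nor a replicate block), and p-values were adjusted by Benjamini-Hochberg over all 22746 probe sets, with calls made at 0.05. The members and the lists of low-oxygen, N-degron and marker genes were chosen with earlier results of these data known. All members are named, and from the 2 lists the 6 and 4 genes with the largest absolute differences among those present on both arrays of the brighter group, together with the 3 nearest genes of each member past 2-fold. Also named are the other low-oxygen genes that the trend fit called. P-values set the group difference against the variation within groups among these 4 samples, moderated by a prior drawn from all probe sets. Alternatives were the replicate block, the intensity trend, a robust prior, 2 filters on dim probe sets, a floor of 50, quantile normalization, median centring, the series matrix and leaving out each array. The trend fit without each array was added after seeing the data. One marker gene is not reported here.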

Additional observations from a re-analysis of the deposited data

How the results depend on the processing

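The log2 differences of RAP2.12, RAP2.3, HRE1, HRE2, PCO1, PCO2, HRA1 and LBD41 kept their sign under all 13 alternatives, with ranges of -2.48 to -2.40 for HRA1, -2.16 to -1.92 for PCO2, -2.13 to -1.95 for LBD41 and -1.63 to -1.38 for PCO1. The replicate block, the trend and the robust prior leave a difference as it is, and without 1 array it moves by part of the distance between the replicates, so these settings say little about stability. RAP2.2, at -0.06 with all arrays, turned to 0.04 without control replicate 2 and was at -0.16 without control replicate 1. The count of 7 members lower with groups apart stayed the same except without control replicate 1, where RAP2.2 no longer overlapped. Leaving out an array cannot lower this count, and the replicate block, the trend and the robust prior cannot change it. The median over the 9 members, -0.66, ran from -0.82 to -0.50 when single arrays were left out. Calls over all probe sets, 0 in the fit without a trend, were 72 with the trend, 18 without the dimmest 30%, 19 among probe sets present on at least 2 arrays and 1 with a floor of 50, and in the trend fit 11 without ASP replicate 1, 9 without ASP replicate 2, 22 without control replicate 1 and 37 without control replicate 2. On the low-oxygen list the calls, 0 without a trend, were 11 with the trend, 3 under both filters on dim probe sets, and 1 to 3 in the trend fit without single arrays. These filters test fewer probe sets. No setting called a gene of the N-degron list. With the replicate number as a block, 0 probe sets were called. Arrays with the same number did not deviate together (correlation -0.02 across probe sets present on all arrays), and the labels do not say that a number marks a shared batch.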
